A study of Mus musculus with 18 samples.

Results

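The comparison set 2 founder lines of mice with a transgenic miRNA cluster against each other, founder line 79 (Tg79) and founder line 9 (Tg9). Its members were the arrays titled Tg79-1 to Tg79-3 and Tg9-1 to Tg9-3, 12 of the 18 arrays of the series. They were 6 of the 9 arrays with probes for mature miRNAs and 6 of the 9 arrays with mRNA probes, 3 of each kind per line. Both lines carried the cluster of miR-17, miR-18a, miR-19a, miR-20a, miR-19b and miR-92a under the Eμ enhancer and the IgH promoter, which direct it to B cells. RNA came from B cells taken from the spleen with magnetic beads. Wild-type mice (WT) without the transgene gave 3 arrays of each kind and serve here as the background. Age, sex and strain are not given in the sources used here. All mice of a line descend from 1 founder, so the insertion site of the transgene and its copy number go with the line and cannot be told apart from it. The labels number the arrays of a line 1 to 3 and do not say for each array which mouse it came from, so p-values measure the spread between these arrays.

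This cluster is a single primary transcript that is cut into several hairpins, each giving a mature miRNA from one or both of its arms. Its products fall into the miR-17, miR-18, miR-19 and miR-92 families, and the members of a family share the seed, the stretch near the 5′ end that pairs with target mRNAs. In lymphocytes the cluster is known for promoting survival and proliferation, with the mRNA of Bcl2l11 (Bim) among its best known targets. A pair of other clusters, miR-106a-363 on the X chromosome and that of miR-106b, miR-93 and miR-25 within Mcm7, code for close relatives that are not part of the transgene.

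The sequences below are shown because the comparison turned on which probes follow the transgene, and the relatives differ from its products by few bases. They are RefSeq's mature sequences (GRCm38.p6), 5′ to 3′, with the seed (bases 2 to 8) in capitals. The 6 hairpins of the transgene's cluster lie, at their own locus, at chr14:115043671-115044506 (+ strand), the miR-106a-363 hairpins at chrX:52741693-52742567 (- strand), the miR-106b, miR-93 and miR-25 hairpins at chr5:138165321-138165818 (- strand) and miR-92b at chr3:89227116-89227198 (- strand).
miR-17-5p: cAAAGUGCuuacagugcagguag
miR-106a-5p: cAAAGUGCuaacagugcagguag
miR-20a-5p: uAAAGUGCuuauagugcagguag
miR-20b-5p: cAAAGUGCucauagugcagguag
miR-93-5p: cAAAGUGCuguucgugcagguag
miR-106b-5p: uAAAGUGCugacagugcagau
miR-18a-5p: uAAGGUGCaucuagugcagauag
miR-18b-5p: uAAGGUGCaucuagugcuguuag
miR-19a-3p: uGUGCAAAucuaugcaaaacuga
miR-19b-3p: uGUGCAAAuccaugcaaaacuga
miR-92a-3p: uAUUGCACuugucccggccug
miR-92b-3p: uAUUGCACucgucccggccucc
miR-25-3p: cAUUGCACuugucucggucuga
miR-363-3p: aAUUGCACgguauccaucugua
miR-17-3p: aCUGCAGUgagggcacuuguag
Counted from the 5′ end, miR-106a-5p differs from miR-17-5p by U10A alone, and miR-20b-5p from miR-20a-5p by U1C and U10C. MiR-18b-5p differs from miR-18a-5p by A18U and A20U, and miR-92b-3p from miR-92a-3p by U10C, G21C and 1 more base at its end. MiR-93-5p has 4 substitutions against miR-17-5p. MiR-363-3p has 11 against miR-92a-3p. MiR-19b-3p and miR-92a-3p are made from a hairpin of the transgene and also from one on the X chromosome, so these probes read both sources. The sequences of the array probes were not used here, and how far a probe reads a relative that differs by 1 to 3 bases was not tested.

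By the slide codes of the deposited files, the miRNA arrays lay on 3 slides. Slide 1 held the 3 Tg9 arrays with WT1, slide 2 the 3 Tg79 arrays with WT2, and slide 3 WT3. Line and slide therefore coincide on the transgenic miRNA arrays and cannot be told apart there, except against the 1 wild-type array that each slide holds. The share of miRNA probes above background was 33.0% to 42.6% in Tg9, 24.4% to 32.3% in Tg79 and, in wild type, 35.1% to 40.8%, and that of mRNA probes 71.3% to 78.5% over all arrays. Because the mRNA probes are not paired with gene names in the files, the B cell label could not be checked by mRNA markers. Among miRNAs, miR-150-5p, typical of mature lymphocytes, read 9.20 to 13.25 on the 6 transgenic arrays, while of the red cell miRNAs miR-144-3p was too dim to be tested and miR-451a was above background on all 9 arrays, at 8.05, 7.66 and 7.77 in Tg9, 8.03, 7.84 and 6.75 in Tg79 and 6.97 to 7.65 in wild type. All levels below are log2 normalized intensities, and differences are Tg79 minus Tg9 on that scale. Levels of different miRNAs are not compared, since probes differ in brightness. In bulk RNA, fewer cells of a type and less RNA per cell cannot be told apart.

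The dose of the transgene was read as the mean over the 11 of 12 arms of the cluster that were tested. This level also holds the product of the mice's own cluster, and its mean in wild type was 7.79. Ratios of it are therefore not ratios of transgene product alone. Tg79 had a level of 9.83 ± 0.45 and Tg9 one of 8.44 ± 0.75 (SD, n = 3 each), a difference of 1.39 or 2.62-fold. The exact permutation test gave p = 0.10, the smallest that 3 arrays against 3 allow (two-sided). From only those arms above background on all 6 transgenic arrays the difference was 1.56. The 3 Tg9 arrays did not share a level. Tg9-1 (9.31) lay 0.04 below Tg79-1 (9.35), the lowest Tg79 array. The array labelled Tg9-2 (7.99) and the array labelled Tg9-3 (8.02) lay just above the highest of the wild-type arrays (7.68 to 7.98). That highest array was WT2, on the Tg79 slide, while WT1, on the Tg9 slide, had 7.68. Whether the mice behind the arrays labelled Tg9-2 and Tg9-3 carried and expressed the transgene was not tested. These 2 Tg9 arrays are kept as labelled, and the Tg9 mean and the 2.62-fold difference rest on them. The range within Tg9 was 1.32, close to the difference between the lines, and within Tg79 0.90. Against the wild-type array of its own slide, Tg79 lay 1.84 above WT2 and Tg9 0.76 above WT1, which leaves 1.08 between the lines. Without the arrays labelled Tg9-2 and Tg9-3 the difference was 0.51 (exact permutation p = 0.50). With the deposited background column subtracted it was -0.59 (exact permutation p = 0.40); across spots that column followed the spot itself, with r from 0.976 to 0.994 on the log2 scale.

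The individual arms carried this pattern. MiR-17-5p, which gives the miR-17 family its name, read 13.25, 10.60 and 10.86 on Tg9-1 to Tg9-3 and 13.12, 13.54 and 13.25 on Tg79-1 to Tg79-3, against 10.26 to 10.57 in wild type. The lines overlapped, because Tg9-1 lay within the Tg79 values while the other two Tg9 arrays lay near wild type. MiR-20a-5p, of the same seed, read 12.91, 10.39 and 10.52 in Tg9 and 12.48, 13.25 and 13.12 in Tg79. MiR-19b-3p, of the miR-19 family, read 12.69, 10.57 and 10.44 in Tg9 and 12.06, 13.12 and 12.91 in Tg79. For both, Tg9-1 was above Tg79-1. MiR-19a-3p read 9.67, 8.05 and 8.20 in Tg9 and 9.64, 11.32 and 10.44 in Tg79, so the lowest Tg79 array and Tg9-1 were again level.

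MiR-92a-3p and miR-18a-5p did not overlap between lines. MiR-92a-3p, the last miRNA of the cluster, read 9.72, 8.89 and 8.42 in Tg9 and 10.44, 11.48 and 11.16 in Tg79, a difference of 2.01 ± 0.36 (SE). MiR-18a-5p read 8.89, 7.75 and 7.87 in Tg9 and 9.57, 10.44 and 9.36 in Tg79, a difference of 1.62 ± 0.40. Among the opposite strands, miR-17-3p, miR-18a-3p and miR-92a-1-5p also did not overlap, with differences of 1.70, 0.69 and 0.71. MiR-20a-3p (1.30) and miR-19b-1-5p (0.54) overlapped. Only 1 Tg9 and 2 Tg79 arrays read miR-92a-1-5p above background, and 2 of each read miR-19b-1-5p so, which leaves their sizes uncertain.

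**Figure D1:**
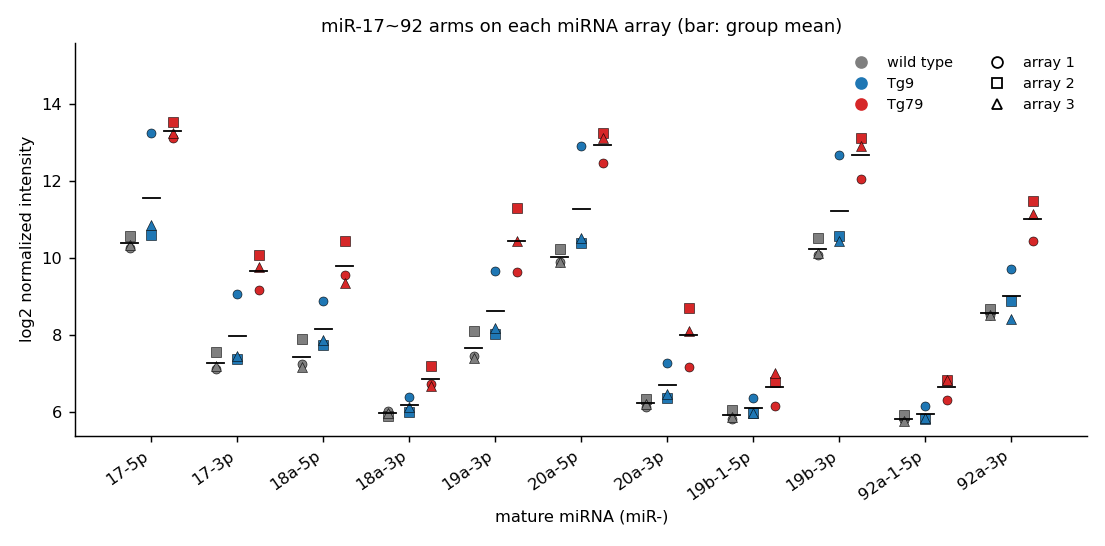
Log2 normalized intensity (vertical axis) of the 11 tested arms of the transgene's cluster (horizontal axis) on the 9 miRNA arrays, coloured by group with 1 symbol per array number and a bar at each group mean. For miR-17-5p the Tg9-1 circle (13.25) sits with the Tg79 points, and the Tg9 square and triangle (10.60 and 10.86) sit near wild type.

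Over all miRNAs, limma called 0 of 501 tested (0%) between the lines after Benjamini-Hochberg adjustment. Unadjusted p-values under 0.05 numbered 77, and the lowest adjusted value was 0.156. The 11 arms had differences from 0.54 to 2.01 with a median of 1.62, against a median of -0.03 over all tested miRNAs, and all 11 were among the 77. The median SD over the arms was 0.66 in Tg9 and 0.46 in Tg79, against 0.14 and 0.17 over all tested miRNAs. Of the arms, 5 of 11 did not overlap between lines and lay higher in Tg79, where 8.98% of all tested miRNAs did so and 10.4% lay lower without overlap. Without Tg9-1, 8 miRNAs were called, all higher in Tg79, and without Tg79-3, 2 were called.

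Tg9-1 and Tg79-1 had nearly the same mean level, and the arms did not all match between them. Since the arms make up the level, arms that differ here must go both ways. On Tg79-1, miR-92a-3p was 0.72 higher and miR-18a-5p 0.67 higher than on Tg9-1, whereas miR-19b-3p was 0.63 lower, miR-20a-5p 0.42 lower and miR-17-5p 0.13 lower. These are 2 single arrays on different slides, with no replicate check. With the level as a covariate over the 6 arrays, the line term was 0.76 for miR-92a-3p and -0.69 for miR-19b-3p (limma adjusted p = 0.989 for both). The arms make up this covariate too, so their line terms average 0 and opposite signs among them are built in. In that fit 0 of 501 miRNAs were called and 4 had an unadjusted p under 0.05.

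The next question was which miRNAs followed the cluster dose over the 6 transgenic arrays. The measure was the slope of a miRNA on the level of the arms, in log2 per log2. Limma called 12 of 501 miRNAs rising with the level (2.40%) and 1 falling (0.2%); 55 had an unadjusted p under 0.05. Of the 12, 9 were arms of the cluster, which make up the level, so their slopes are a description; they ran from 0.45 for miR-92a-1-5p to 1.35 for miR-17-5p. The other 3 were miR-20b-5p, miR-92b-3p and miR-106a-5p, 3 of the 490 miRNAs that are not arms.

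MiR-20b-5p, a miR-17 family member of the X-chromosomal cluster, read 11.74, 9.88 and 10.08 in Tg9 and 12.13, 12.91 and 12.69 in Tg79, against 9.20 to 9.79 in wild type. Its slope was 1.37 ± 0.08 (SE, limma adjusted p = 0.0017). MiR-106a-5p, from the same cluster, read 11.66, 10.00 and 10.04 in Tg9 and 12.27, 12.61 and 12.61 in Tg79, with a slope of 1.27 ± 0.13 (adjusted p = 0.010). MiR-92b-3p, a miR-92 family member coded alone on chromosome 3, read 8.40, 7.41 and 7.05 in Tg9 and 8.82, 9.96 and 9.67 in Tg79, with a slope of 1.22 ± 0.11 (adjusted p = 0.0073). All 3 were high on Tg9-1 and on every Tg79 array and near wild type on the arrays labelled Tg9-2 and Tg9-3. None overlapped between lines, with differences of 2.01, 1.93 and 1.86. On Tg79-1, miR-20b-5p was 0.38 and miR-106a-5p 0.61 higher than on Tg9-1, where the arms miR-20a-5p and miR-17-5p were 0.42 and 0.13 lower. MiR-92b-3p was 0.41 higher there and the arm miR-92a-3p 0.72 higher. MiR-18b-5p, the miR-18 member of the X-chromosomal cluster, read 7.84, 6.78 and 6.94 in Tg9 and 8.51, 9.02 and 8.03 in Tg79, and its slope of 0.86 ± 0.15 was not called (adjusted p = 0.060).

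These slopes rested on few arrays. MiR-20b-5p was called when any 1 of the 6 arrays was left out, miR-92b-3p in 5 of 6 and miR-106a-5p in 3 of 6 such fits. MiR-106a-5p was lost without the array labelled Tg9-2 or Tg9-3 or without Tg79-3, and miR-92b-3p without the array labelled Tg9-3. Without both of these Tg9 arrays 0 miRNAs were called. With the authors' deposited values 0 were called, and the adjusted p of the 3 was 0.072 to 0.085.

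**Figure D2:**
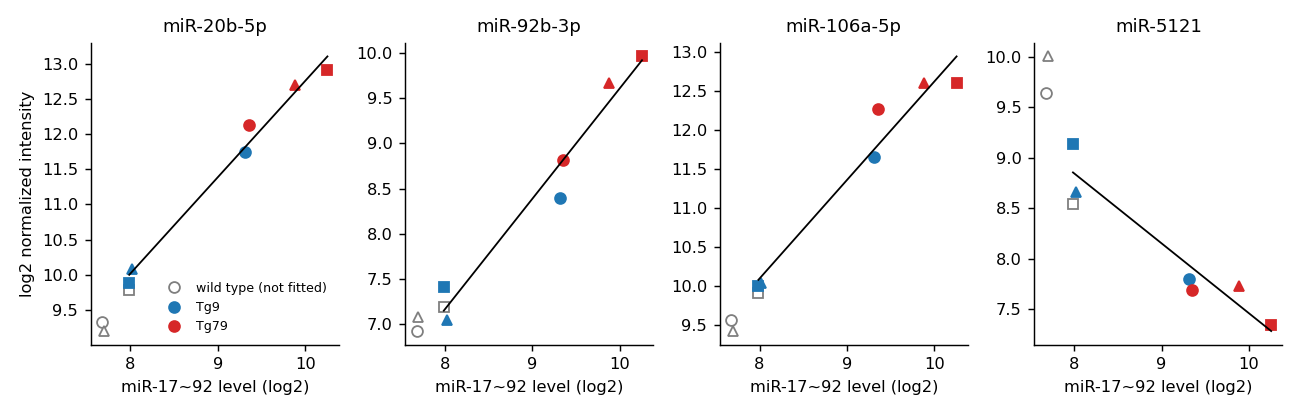
Log2 normalized intensity (vertical axes) of the 4 called miRNAs that are not arms of the transgene's cluster against the level of those arms (horizontal axes, log2), 1 point per miRNA array. The line is the slope over the 6 transgenic arrays, and wild-type arrays (open symbols) were not part of it. The array labelled Tg9-2 and the array labelled Tg9-3 lie at the low end near 8, and Tg9-1 lies beside Tg79-1 near 9.3.

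The miRNAs outside the cluster that rose with the dose were close to an arm in sequence. Mature sequences were found for 399 of the 501 tested miRNAs. Of the 388 that are not arms, 4 were within 3 differences of an arm, namely miR-106a-5p, miR-20b-5p, miR-18b-5p and miR-92b-3p, and 3 of these 4 were called. That limit, which counts substitutions and bases of length together, was chosen after the values were seen. Of 9 miRNAs that have the seed of an arm and are no arm, the same 3 were called, as were 3 rising among all 490 miRNAs that are not arms. MiR-25-3p, of the miR-92 seed, read 8.98, 9.28 and 9.28 in Tg9 and 9.07, 8.89 and 8.79 in Tg79 with a slope of -0.20. MiR-106b-5p, of the miR-17 seed, read 9.51, 9.51 and 9.72 in Tg9 and 9.60, 9.82 and 9.34 in Tg79 with a slope of -0.0012. Both have 3 substitutions against their closest arm, and only their length differences of 1 and 2 bases put them past the limit. MiR-363-3p and miR-32-5p, also with the miR-92 seed, had slopes of 0.04 and 0.01. Only 1 Tg9 and 2 Tg79 arrays read miR-363-3p above background, so its slope says little. Within the X-chromosomal cluster, miR-92a-2-5p and miR-363-5p had slopes of -0.09 and -0.03. From the same group of hairpins, miR-20b-5p and miR-106a-5p had slopes above 1 and miR-18b-5p one of 0.86. MiR-92a-2-5p and miR-363-5p are opposite strands, and miR-363-5p was dim, at 6.24 to 6.46 on the 6 arrays. Whether this cluster as a whole changed was not tested. The 5 tested arms of the Mcm7 cluster had slopes from -0.20 to 0.45.

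**Figure D3:**
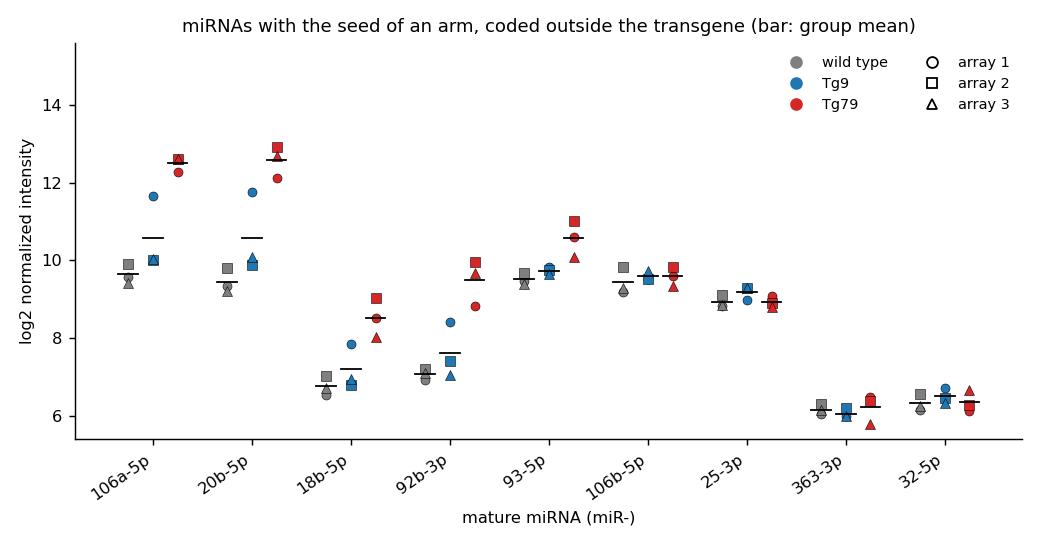
Log2 normalized intensity (vertical axis) of the 9 tested miRNAs that have the seed of an arm and are coded outside the transgene (horizontal axis), on the 9 miRNA arrays, with colours, symbols and bars as in the plot of the arms. MiR-106a-5p, miR-20b-5p, miR-18b-5p and miR-92b-3p are high on Tg9-1 and the Tg79 arrays and lower on the arrays labelled Tg9-2 and Tg9-3. MiR-106b-5p, miR-25-3p, miR-363-3p and miR-32-5p stay level across groups within about 1 log2 unit. MiR-363-3p was above background on only 1 Tg9 and 2 Tg79 arrays.

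MiR-93-5p stood between these patterns. This miR-17 family member of the Mcm7 cluster read 9.64 to 9.82 in Tg9 and 10.60 and 10.08 on Tg79-1 and Tg79-3, with Tg79-2 higher still, a difference of 0.83 ± 0.21 without overlap (limma adjusted p = 0.156). The 3 Tg9 arrays were alike although their cluster levels were not. Its slope over the 6 arrays was 0.45 ± 0.16 (adjusted p = 0.37) and within lines 0.16 ± 0.25. With the authors' values its difference was -0.01, where the median over all miRNAs was -0.56.

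MiR-5121 was the miRNA that fell with the level. It read 7.80, 9.13 and 8.66 in Tg9 and 7.69, 7.34 and 7.73 in Tg79, with a slope of -0.69 ± 0.10 (limma adjusted p = 0.026). Tg9-1 lay close above the Tg79 arrays, and the other two Tg9 arrays were nearer to the wild-type values of 9.64, 8.54 and 10.00. The call was lost in each of the 6 fits with 1 array left out (adjusted p 0.054 to 0.11). The mature sequence of this miRNA lies at chr7:45126925-45126945 (- strand).

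Within a line the slide is the same, so the slope fitted with the line as a factor uses differences inside slides alone. Limma called 1 of 501 miRNAs (0.2%), the arm miR-17-3p, with a slope of 1.20 ± 0.09 (adjusted p = 0.045), and 13 reached an unadjusted p under 0.05. Among the 13, 9 were arms, miR-17-3p included. Arms make up the level, so their slopes within lines are a description. On the mean of the other arms, the slope of miR-17-3p within lines was 1.22. Of the 490 others 0 were called and 4 had an unadjusted p under 0.05, namely miR-20b-5p, miR-92b-3p, miR-106a-5p and miR-5121. Their slopes within lines were 1.23 ± 0.13, 1.00 ± 0.16, 1.03 ± 0.20 and -0.72 ± 0.19 (adjusted p = 0.073, 0.20, 0.29 and 0.67). Each kept the sign that it had over the 6 arrays. The call of miR-17-3p rested on the settings: 0 were called without background correction, with cyclic loess, among probes above background on all 6 arrays, in the authors' table and in each of the 6 fits with 1 array left out. With 75th percentile scaling 9 were called, miR-20b-5p, miR-106a-5p and miR-92b-3p among them.

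**Figure D4:**
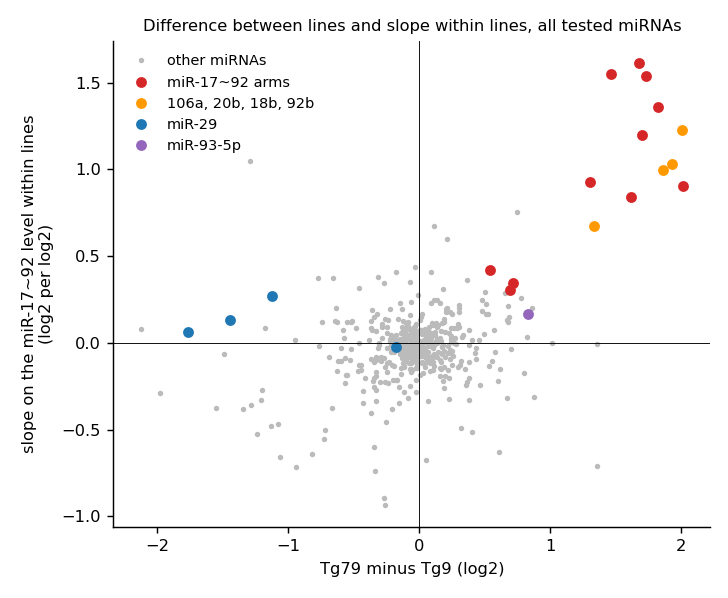
Slope on the level of the arms within lines (vertical axis, log2 per log2) against Tg79 minus Tg9 (horizontal axis, log2) for the 501 tested miRNAs. The arms and miR-106a-5p, miR-20b-5p, miR-18b-5p and miR-92b-3p lie at the upper right, whereas miR-29a-3p, miR-29b-3p and miR-29c-3p lie at the left with slopes of 0.06 to 0.27.

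Other miRNAs lay apart between the lines without a called slope on the dose. MiR-6240 read 12.27, 12.06 and 12.91 in Tg9 and 11.10, 10.64 and 9.57 in Tg79, a difference of -1.98 ± 0.40 (limma adjusted p = 0.156). MiR-6243 read 12.61, 12.69 and 13.54 in Tg9 and 11.88, 11.66 and 10.64 in Tg79, a difference of -1.55 ± 0.40. Both were without overlap, and for both Tg9-1 was with the other Tg9 arrays. MiR-3090-5p and miR-3102-5p were lower in Tg79 by the smaller differences of -0.60 and -0.63, also without overlap. MiR-5099 (0.82) and miR-1943-3p (0.40) lay higher on every Tg79 array than on any Tg9 array; with the authors' values miR-5099 was at -0.03, where the median over all miRNAs was -0.56. WT1, on the Tg9 slide, read 10.15 for miR-5099, above the 3 Tg9 arrays (9.40 to 9.57) and within the Tg79 values (10.12 to 10.52). MiR-6396, miR-3105-5p and miR-135a-2-3p were not well above background on any Tg79 array and were on all 3 Tg9 arrays, which makes them at least 1.11-fold, 1.28-fold and 1.02-fold lower, bounds that leave out the spread between arrays. With 75th percentile scaling, where the median over all miRNAs was 0.41, miR-6396 was at 0.08 and miR-135a-2-3p at 0.24. With limma 0 of these were called between the lines. Their slopes over the 6 arrays ran from -1.03 for miR-6240 to 0.40 for miR-5099 with limma adjusted p of 0.22 to 0.53. Of these 9 slopes 7 had an unadjusted p under 0.05, so a relation to the dose is not settled for them.

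The miR-29 family, known for acting on collagen and other matrix mRNAs and on DNA methyltransferase mRNAs, lay lower in Tg79. MiR-29a-3p read 11.88, 13.12 and 11.66 in Tg9 and 9.77, 11.16 and 11.38 in Tg79, miR-29c-3p read 9.74, 9.79 and 10.26 in Tg9 and 7.20, 7.69 and 9.60 in Tg79, and miR-29b-3p differed by -1.12. For these 3 of 4 tested members the lines did not overlap, with limma adjusted p of 0.24 to 0.30, so 0 were called; of all tested miRNAs 10.4% lay lower in Tg79 without overlap. The family median of -1.28 was -1.26 relative to the median of all miRNAs and -1.51 when arrays were scaled to their 75th percentile. In the authors' table only 3 members were kept, with a family median of -1.78 relative to that of all miRNAs. Once the background column was subtracted, miR-29a-3p and miR-29b-3p turned to 0.23 and 1.66. Tg79-1 had the lowest values, and their slopes within lines were 0.06 to 0.27.

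Of the miR-30 and miR-26 list 10 of 11 tested members were lower in Tg79, with a median of -0.58 and 0 called. MiR-26a-5p, known for acting on Ezh2, read 11.06, 12.41 and 10.97 in Tg9 and 10.00, 10.04 and 10.78 in Tg79, without overlap. MiR-26b-5p differed by -1.20 and miR-30d-5p by -1.49, the latter with overlap at Tg79-3. Of the let-7 family 11 of 12 tested members were lower in Tg79, with a median of -0.23 and 0 called. The list of miR-15, miR-16 and relatives (9 tested, median 0.02) and the list of miR-23, miR-24 and miR-27 (7 tested, median 0.23, but -0.06 relative to all miRNAs with 75th percentile scaling) had 0 members at an unadjusted p under 0.05, and miR-34a-5p, the 1 tested member of the miR-34 list, differed by 0.18. Over all miRNAs the median was -0.03.

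Of 14 lymphocyte miRNAs tested, 0 were called between the lines, 8 were higher and 6 lower in Tg79, and the median difference was 0.17. MiR-181b-5p, a regulator of lymphocyte development, read 6.49 to 7.34 in Tg9 and 7.84, 7.39 and 7.64 in Tg79, a difference of 0.68 ± 0.22 without overlap, and its family member miR-181d-5p differed by 0.51. MiR-150-5p read 13.12, 13.25 and 11.88 in Tg9 and 10.26, 9.20 and 12.41 in Tg79, with Tg79-3 among the Tg9 values. Its difference was -2.13 ± 0.78 (limma adjusted p = 0.27), and wild type read 12.27 to 13.11. MiR-155-5p, which is induced when B cells are activated and was picked after its values were seen, read 7.97, 8.34 and 8.57 in Tg9 and 9.74 and 8.20 on Tg79-2 and Tg79-3, with Tg79-1 above them all. For miR-155-5p Tg79-3 again lay among the Tg9 values.

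Markers of other cells were mostly dim. Of 33 listed miRNAs 13 were tested and 0 called, 7 higher and 6 lower in Tg79 with a median of 0.13 and 1 at an unadjusted p under 0.05, and their mean level per array was 6.55 to 6.78 in Tg9 and 6.29 to 6.71 in Tg79. MiR-223-3p of myeloid cells read 9.10 on Tg9-1, 7.47 and 6.57 on the arrays labelled Tg9-2 and Tg9-3 and 6.21 to 6.69 on the Tg79 arrays; wild type read 7.16 to 7.64. Tg9-1 therefore stood highest in its line both for miR-223-3p and for the level of the cluster. The part of other cells in the differences was not tested.

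Slide was not a term in the fits of the mRNA arrays, and their placing on slides is not reported here. Limma called 1 of 18524 probes (0.0054%) between the lines, and 1440 had an unadjusted p under 0.05, 726 higher and 714 lower in Tg79. The called probe, M300012030, read 8.54, 8.97 and 8.91 in Tg9 and 6.92, 7.10 and 6.89 in Tg79, against 9.17 to 9.41 in wild type, a difference of -1.84 ± 0.13 (SE, adjusted p = 0.0231). All Tg79 arrays were lower than all others, and the Tg9 arrays lay just below wild type. M300020442 differed by -0.53 ± 0.06 and was next among lower probes (adjusted p = 0.227). M400010804 read 7.36, 6.67 and 7.15 in Tg9 and 9.06, 8.75 and 8.61 in Tg79, a difference of 1.75 ± 0.21, and M400004407 differed by 1.13 ± 0.13 (both adjusted p = 0.227).

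Across all mRNA probes tested, 977 (5.27%) lay higher and 1033 (5.58%) lower in Tg79 without overlap, and 128 were at least 2-fold higher and 193 at least 2-fold lower. The count depended on single arrays. Without Tg79-3, 131 probes were called, 108 higher and 23 lower. Without the array labelled Tg9-3, 5 were called, without Tg79-1, 2, both higher in Tg79, so that M300012030 was no longer called, and without the array labelled Tg9-2, without Tg79-2 or without any 1 of the wild-type arrays, 0. Without both Tg9 arrays of low cluster level, taking their numbers to the mRNA arrays although the labels do not link them, 28 were called, all lower in Tg79.

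Taken as whole profiles, distances between the lines overlapped with those inside a line, and the largest were between the lines. On the miRNA arrays the mean absolute log2 difference was 0.26 to 0.50 (median 0.38) between a Tg79 and a Tg9 array. It was 0.28 to 0.41 (median 0.37) within Tg79 and 0.27 to 0.33 (median 0.31) within Tg9. On the mRNA arrays it was 0.20 to 0.36 (median 0.26) between lines, 0.27 to 0.32 (median 0.28) within Tg79 and 0.22 to 0.27 (median 0.24) within Tg9. The array labelled Tg9-2 was the transgenic array nearest to the wild-type mean in both kinds (0.194 for miRNA and 0.154 for mRNA), while the Tg79 arrays stood 0.42 to 0.43 away for miRNA and 0.28 to 0.39 for mRNA. On mRNA arrays the array labelled Tg9-3 stood 0.33 away, farther than Tg79-3 (0.28).

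**Figure D5:**
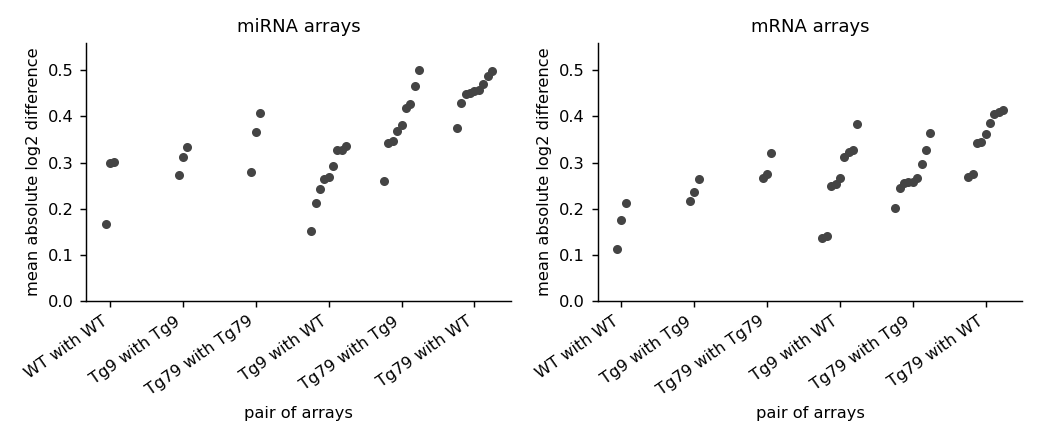
Mean absolute log2 difference over all tested probes (vertical axis) between pairs of miRNA arrays (left) and of mRNA arrays (right), 1 point per pair, by the groups of the pair (horizontal axis). Pairs of a Tg79 and a Tg9 array (0.26 to 0.50 for miRNA, 0.20 to 0.36 for mRNA) overlap with pairs inside each line.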

How the data were processed

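Splenic B cell RNA was measured on one-colour Cy5 arrays. Per the file headers, the deposited scanner files hold the median intensity of each spot at 635 nm, fitted by the scanner over 3 gains, with no normalization. The authors' deposited series tables hold log2 values, and the sources used here do not say how these were made; miRNA values there stand 5 rows from their identifiers (Spearman's rho with the scanner values, across probes, 0.142 to 0.171 as given and 1 once moved), so they served, moved, as an alternative only. Intensities were corrected with normexp (offset 50, foreground alone), log2 transformed, averaged over the spots of a probe and quantile normalized for each kind of array in R 4.3.3 with limma 3.58.1. Probes above the 95th percentile of negative controls on at least 3 of 9 arrays were tested, 501 of 1265 miRNA and 18524 of 23473 mRNA probes. One limma model with the 3 group means over 9 arrays gave Tg79 against Tg9; slopes used the 6 transgenic arrays, with and without the line as a factor. Two-sided p-values were adjusted by Benjamini-Hochberg across all tested probes and called under 0.05. The fits were tested on simulated data with independent noise for each probe and array. Those data held no slide effect, so the test does not cover line and slide coinciding. The number of arrays limits the precision.

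The members, lists and tests were chosen with earlier results of these data known. Candidates for naming were all arms of the 3 clusters and of miR-92b, the 8 miRNAs each way with the smallest p for the lines and, outside the arms, for both slopes, up to 4 of each list, and the 10 mRNA probes each way with the smallest p; the text names part of these, and of the probes, which have no gene name here, 2 each way. MiR-155-5p, miR-32-5p and miR-451a fall outside this rule. The mRNA gene lists were not analysed here, because no table pairs probes with genes. Replicate numbers were not used to pair the arrays in the main fits. Alternatives were other background corrections, scalings and filters, the authors' values, array weights, slide as a factor or random block, replicate block, other definitions of the level and leaving out arrays.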

Additional observations from a re-analysis of the deposited data

How the results depend on the processing

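Between the lines, 0 miRNAs were called; 75th percentile scaling gave 9 (8 higher and 1 lower), the authors' values 23 (all lower, where the median of all miRNAs was -0.56), slide as a random block 34 (23 higher and 11 lower; the estimated correlation within slides was negative, -0.144, and each line lies on 1 slide) and the fit without both low Tg9 arrays (Tg9-2, Tg9-3) 1; leaving out 1 array gave 0 to 8. The level difference of 1.39 ran from 1.16 to 1.84 with 1 array left out and turned to -0.59 with the deposited background column. Over the 6 arrays 13 miRNAs followed the level, 3 to 13 with 1 array left out, 53 over all 9 arrays, and 0 with the background column, with the authors' values or without both Tg9 arrays. Within lines the 1 call became 9 with 75th percentile scaling, 4 with that percentile over all probes, and 0 without background correction, with cyclic loess, with probes above background on all 6 arrays, with the background column, with the authors' values and with any 1 array left out. The 1 mRNA call became 0 with the authors' values, with the 6 arrays alone, with array weights and with the replicate block, 28 without both Tg9 arrays, and 0 to 131 with 1 array left out. With the replicate block 0 miRNAs were called. Same-numbered arrays of the lines did not deviate together (r from -0.43 to -0.11 for miRNA and -0.25 to -0.0048 for mRNA). These values gave no sign of pairing by number, but with so few arrays per line they cannot settle it. The background column, the 75th percentile over all probes, the level as a covariate, both Tg9 arrays left out together and the slopes on the authors' values were chosen after seeing the data.

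Single miRNAs that turned sign were few outside the background column. The difference of miR-106b-5p, near 0, became -0.040 with 75th percentile scaling, -0.48 with it over all probes, -0.19 with cyclic loess, -0.99 with the authors' values, -0.64 with slide as a factor and -0.12 to 0.12 with 1 array left out. With 75th percentile scaling miR-6396 became 0.077 and miR-135a-2-3p 0.24. With the authors' values miR-93-5p became -0.0050 and miR-5099 -0.032. With slide as a factor miR-363-3p became -0.099 and miR-5121 0.15. With the level as a covariate miR-17-5p became -0.41, miR-19a-3p -0.066, miR-20a-5p -0.56, miR-19b-1-5p -0.042, miR-19b-3p -0.69, miR-25-3p 0.047 and miR-5121 0.052. The arms make up that covariate, so their line terms average 0 and negative ones among them are built in. Without both Tg9 arrays miR-19b-3p became -0.039. With the background column the differences became -1.27 for miR-17-5p, -1.07 for miR-17-3p, -1.24 for miR-18a-5p, -0.22 for miR-20a-3p, -1.19 for miR-19b-3p, -0.0048 for miR-92a-1-5p, -2.52 for miR-92a-3p, -2.73 for miR-106a-5p, -0.0073 for miR-1943-3p, 0.87 for miR-6240, 0.27 for miR-3090-5p, 0.0055 for miR-3102-5p, 0.23 for miR-29a-3p, 1.66 for miR-29b-3p, -1.11 for miR-155-5p, -0.56 for miR-181b-5p, -0.014 for miR-181d-5p, 1.09 for miR-26a-5p, 2.62 for miR-26b-5p, 0.75 for miR-30d-5p, 1.11 for miR-25-3p, -0.021 for miR-363-3p and 0.85 for miR-5121. There the slopes over 6 arrays became -1.01 for miR-20b-5p, -0.27 for miR-18b-5p and -0.31 for miR-92b-3p, and those within lines -0.40 for miR-20b-5p, -0.19 for miR-18b-5p and 0.13 for miR-5121. The cause was not tested in any of these. Probes near background, such as miR-92a-1-5p and miR-19b-1-5p, limit what these arrays resolve.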
